A study of Mus musculus with 12 samples.

Results

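The genes described here are 40 genes of mitosis, chosen by symbol from knowledge of the pathway: mitotic kinases and cyclins, spindle checkpoint proteins, the chromosomal passenger complex, kinetochore and spindle proteins, regulators of mitotic exit, cytokinesis proteins, 2 chromosome proteins that mark dividing cells and 1 transcription factor. All 40 symbols were found among the 28244 genes listed, and all 40 were among the 17674 that passed the filter on low values. Their RNA was measured by RNA sequencing of poly-adenylated RNA from cell pellets in 12 libraries, 3 replicates at each of 4 time points. The cells were mesenchymal progenitors of C57/BL6 mice, freed from the heads and condyles of femurs and tibiae of pups 5 to 6 days old. After pelleting they were kept for 7 days in a chondrogenic differentiation medium (D7), and the medium was then exchanged for an osteogenic one. Pellets were collected at D7, before any osteogenic medium, and after 1, 3 and 21 days in it (D8, D10 and D28). All groups thus share the strain, the tissue of origin and the chondrogenic week, and time in culture and time in osteogenic medium cannot be told apart at D8, D10 or D28. The sources do not state whether replicates came from separate animals or cultures, so p-values measure the spread between these samples, which may be technical.

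Mitosis is the part of the cell cycle in which the copied chromosomes are condensed, attached to the spindle through their kinetochores and pulled apart, after which cytokinesis splits the cell. Entry is driven by the kinase CDK1 with cyclins A and B, and exit by the anaphase-promoting complex, which marks cyclin B and securin for degradation. Most genes of this machinery are transcribed late in the cycle, so their RNA is a common measure of proliferation, and in growth cartilage it is highest in the columnar proliferative zone and low in hypertrophic cells.

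The promoters are shown first, because many of these genes carry the same pair of short motifs near the transcription start. The first is CCAAT, the box bound by the factor NF-Y, searched as CCAAT or ATTGG. The second is TTTGAA, the core of the cell cycle genes homology region bound by the DREAM and MuvB complexes, searched as TTTGAA or TTCAAA. RefSeq promoters (GRCm38.p6, 250 bases before to 50 bases after the start of the gene) were given for 33 of the 40 genes, and the first listed was used where a gene had more than 1. CCAAT was found in 24 of the 33 (72.7%) and in 37.9% of the 27025 promoters in the table. At least 2 copies were found in 17 of the 33 (51.5%), compared with 12.2% of all promoters. TTTGAA was found in 23 of the 33 (69.7%) and in 18.1% of all promoters, and both motifs stood in 20 of the 33 (60.6%) against 7.12%. Among genes that passed the filter the share with both was 4.99%. A match is a string of letters and not a bound site, and the members were listed for a shared function, so these shares are a description.

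The promoter of Mki67 is shown because it holds both motifs and because this gene of the Ki-67 antigen is the usual proliferation marker. Those of Top2a, Ect2 and Ccnb2 are shown for their repeated CCAAT boxes, that of Cdk1 for 2 copies of each motif, and that of Kif11 for the spacing of a single pair. Each is the run of 150 bases that ends just before the RefSeq start, read 5′ to 3′ on the strand of the gene, with CCAAT or ATTGG and TTTGAA or TTCAAA in capitals. They lie on GRCm38 at chr7:135716380-135716529 (minus strand), chr11:99024190-99024339 (minus), chr3:27153879-27154028 (minus), chr9:70421555-70421704 (minus), chr10:69352913-69353062 (minus) and chr19:37376232-37376381 (plus).
Mki67: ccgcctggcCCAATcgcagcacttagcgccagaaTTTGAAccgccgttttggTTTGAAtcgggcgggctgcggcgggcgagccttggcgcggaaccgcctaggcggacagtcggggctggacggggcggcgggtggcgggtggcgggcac
Top2a: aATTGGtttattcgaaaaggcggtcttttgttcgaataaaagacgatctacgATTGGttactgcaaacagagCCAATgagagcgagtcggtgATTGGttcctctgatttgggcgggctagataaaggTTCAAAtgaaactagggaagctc
Ect2: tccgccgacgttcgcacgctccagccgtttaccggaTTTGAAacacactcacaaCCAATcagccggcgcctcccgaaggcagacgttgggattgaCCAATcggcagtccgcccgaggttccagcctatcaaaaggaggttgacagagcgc
Ccnb2: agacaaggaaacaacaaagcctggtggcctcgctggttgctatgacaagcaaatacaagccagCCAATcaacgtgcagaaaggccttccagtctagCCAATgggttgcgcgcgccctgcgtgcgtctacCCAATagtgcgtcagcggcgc
Cdk1: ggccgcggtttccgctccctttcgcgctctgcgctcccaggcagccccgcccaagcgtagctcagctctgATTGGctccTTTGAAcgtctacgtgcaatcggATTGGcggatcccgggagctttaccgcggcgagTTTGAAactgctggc
Kif11: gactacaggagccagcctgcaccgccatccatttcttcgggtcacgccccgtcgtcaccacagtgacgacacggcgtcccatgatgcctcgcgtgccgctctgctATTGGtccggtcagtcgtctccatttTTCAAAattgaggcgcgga

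The Top2a run held 4 CCAAT boxes on one strand or the other before its TTCAAA, and the Ccnb2 run held 3, with 1 TTTGAA upstream of the run and 1 after the start, both outside it. In Kif11 a single ATTGG preceded a single TTCAAA. In the gene annotation (GENCODE M21) the last 26 bases of the Cdk1 run, with its second TTTGAA, lie in an exon of that gene. Some promoters that were counted but are not shown go further, as in Kif4, where all 150 bases do. All positions are relative to the RefSeq start. Of 55 CCAAT matches in the 33 promoters, 35 began between 150 and 20 bases before the start. Of 29 TTTGAA matches 22 began within 60 bases of the start on either side. Positions in other promoters were not counted, so this placement is not shown to be particular to these genes. The 6 genes with neither motif were Melk, Mad2l1, Birc5, Nuf2, Nusap1 and Pttg1. For Ccna2, Aurkb, Incenp, Spc24, Tpx2, Kif20a and Foxm1 no promoter was examined.

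**Figure D1:**
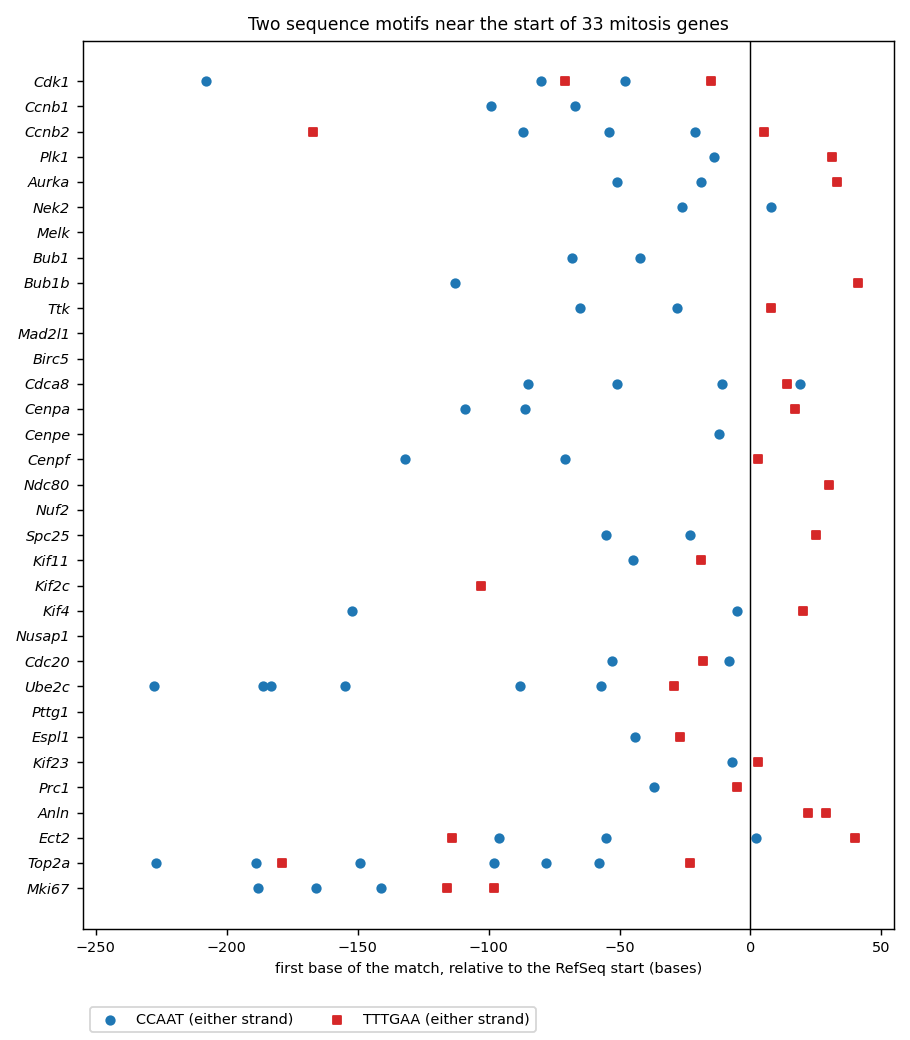
Positions of CCAAT (circles) and TTTGAA (squares), on either strand, in the 33 RefSeq promoters; the x axis gives the first base of each match relative to the start of the gene in bases, and each row is a gene. CCAAT lies mostly before the start and TTTGAA close to it, and 6 rows are empty.

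The mean RNA level over the mitosis genes was lower at each later time point, and most of that decrease came between D10 and D28. The deposited values are log2 of an equalized read count plus 1, and a difference of 1 on that scale is a 2-fold change. A gene was called when its mean differed by at least 1 and the Benjamini-Hochberg adjusted p of limma, over all 17674 genes tested, was under 0.05. The mean over the 40 genes went from 8.25 at D7 through 7.83 and 7.55 to 6.02 at D28. At D28 against D7, 38 of the 40 genes were called lower and 0 higher, while 8.66% of all genes tested were called lower. The median log2 fold change of the members was -2.29, a 4.89-fold lower level, and that of all genes tested was -0.03. In 39 of the 40 every D28 library lay below every D7 library, a separation seen in 24.4% of all genes tested. Exceptions to the call were Cdk1, which missed the fold threshold, and Pttg1. In bulk RNA fewer dividing cells and less RNA of these genes per cell cannot be told apart.

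The fall was not even over the culture. At D8 against D7, 2 members were called lower (5%), Cenpf and Cenpa, beside 3.81% of all genes tested, and the median of the members was -0.45. All 3 D8 libraries lay below all 3 D7 libraries in 23 members, compared with 15.9% of all genes. At D10 against D8, 3 members were called lower (7.5%), Spc24, Melk and Espl1, beside 5.58% of all genes, and the median was -0.21. Here 17 members were lower and 3 (Nusap1, Ccnb1 and Pttg1) higher without overlap of the libraries, compared with 21.9% and 22% of all genes. At D10 against D7 the count was 8 of 40 (Spc24, Mki67, Cenpf, Kif2c, Espl1, Kif20a, Plk1 and Ccnb2), or 20% of the members beside 10.4% of all genes, with a median of -0.71. In 31 members the D10 libraries all lay below the D7 libraries (22% of all genes). The count of 8 moved with the libraries and the scaling: it was 14 without D10 replicate 2, 11 without D7 replicate 1 and 13 with median-of-ratios scaling. At D28 against D10, 35 of 40 were called lower beside 13.7% of all genes, with a median of -1.43 and a median of all genes of -0.10. Without overlap, 37 members were lower (33.8% of all genes). The comparisons share libraries and are not independent of each other.

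No member was called higher in any comparison, where 3.23% (D8 against D7), 4.08% (D10 against D8), 8.5% (D10 against D7), 13.8% (D28 against D10) and 8.63% (D28 against D7) of all genes were. By limma's unadjusted p under 0.05, 2 members were higher at D10 than at D8 and 0 in the other comparisons. The rule of the study (a difference of 1 and a p from the 2 groups alone) gave 0 in each. Shares of all genes by these rules are not given, so these counts have no background. With the adjusted p and no fold threshold, 11, 9, 27, 37 and 39 members were lower in D8 against D7, D10 against D8, D10 against D7, D28 against D10 and D28 against D7. The shares of all genes lower by that rule were 9.09%, 15%, 19.4%, 29.8% and 19.7%. By the same rule Pttg1 alone was higher, at D10 against D8, where 13.9% of all genes were. The 40 genes first met the call below D7 at D8 in 2 cases, at D10 in 7 and at D28 in 29, and 2 never met it. First calls were not tallied over all genes, of which 3.81%, 10.4% and 8.66% were called lower at D8, D10 and D28 against D7.

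**Figure D2:**
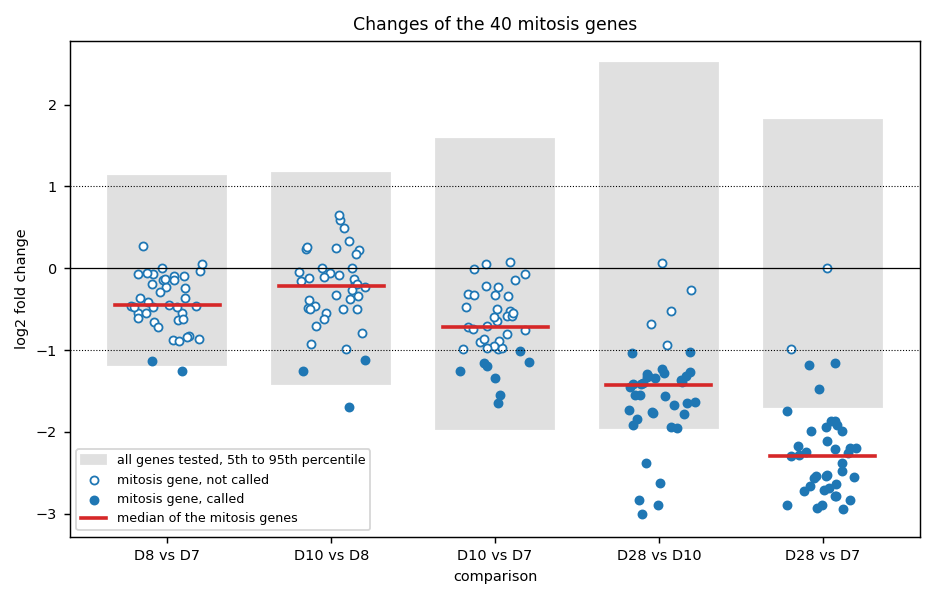
Log2 fold change (y axis) of each of the 40 mitosis genes in 5 comparisons of time points (x axis); filled points are called genes, open points are not, the red line is the median of the 40 and the grey box spans the 5th to 95th percentile of all genes tested. In the comparisons with D7 the cloud lies lower at D10 than at D8 and lowest at D28, and at D28 against D7 38 of 40 points are filled.

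Depth is known only through the low values, from which read numbers were recovered by rank, and relative depth between libraries ranged from 0.730 (D10 replicate 1) to 1.31 (D28 replicate 1). The fewest reads of a member in any library were 12, for Spc24 (4.67) in D10 replicate 1. The level of 3 reads on the log2 scale was highest in that library, at 2.87. The lowest value of a member, 3.27 for Ndc80 in D28 replicate 2, lay above the 3-read level of its own library, 1.54. Mitochondrially encoded genes made up 2.67% to 3.05% of the summed unlogged values in the D10 libraries and 1.02% to 1.81% in the others, and the part of this in the D10 differences was not tested. Libraries of a time point differed in step across members. D10 replicate 2 held the highest D10 value in 29 members and D10 replicate 1 the lowest in 28. At D28, replicate 1 was highest in 29 and replicate 2 lowest in 26. In order of time the median SD of a member was 0.20, 0.13, 0.21 and 0.33, compared with 0.25, 0.19, 0.23 and 0.20 over all genes tested.

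Markers of cell types moved over the same times. Of all genes tested, 3.81% were called lower at D8 against D7. At D10 against D7 10.4% were called lower and 8.5% higher, and at D28 against D7 8.66% and 8.63%. Skeletal muscle markers, 8 of 8 of which were called lower at D28 than at D7, had a summed log2 level of 11.74 to 12.04 at D7, 10.12 to 10.79 at D8, 8.66 to 9.09 at D10 and 7.09 to 8.04 at D28. At D28 the mean of Myod1 was 0.29 and that of Myh3 0.41, under the 3-read level. Adipocyte markers were lower before they were higher: against D7, 4 of 7 were called lower at D8 and 6 of 7 at D10. At D28 7 of 7 were called higher than at D7. Their sums were 11.96 to 12.21 at D7, 10.83 to 11.26 at D8, 9.9 to 10.47 at D10 and 15.37 to 15.83 at D28. Of the macrophage markers 4 of 12 were called higher at D28, and their sum was 12.71 in D28 replicate 2, the library lowest in most mitosis genes, and 10.64 and 10.67 in the others. Endothelial sums were 6.92 to 7.02 at D7, 8.30 to 9.21 at D8 and D10, and 6.06 to 6.77 at D28. Of the erythroid markers 2 of 7 passed the filter, both globin beta genes had means of 0.20 or less, and 0 were called. Of 10 chondrocyte markers 6 were called lower at D10 than at D7, and at D28 against D7 3 were lower and 1 higher. Col2a1, the cartilage collagen, stood at the top of the equalized scale (20.92) in every D7, D8 and D28 library and had a mean of 19.87 at D10. The largest fall at D10 against D7 was that of Ihh, a signal of prehypertrophic cells (-5.98), whose D10 mean of 1.76 was under the 3-read level. At D28 against D7 Col10a1, the collagen of hypertrophic cells, fell furthest (-2.99) and Matn1, a cartilage matrilin, rose by 1.04. Osteoblast markers went both ways, with 5 of 10 called higher and 4 lower at D10 than at D7, and 5 higher and 2 lower at D28. Ibsp, bone sialoprotein, fell by 6.34 at D10, and Bglap2, of the osteocalcin cluster, whose near-identical copies may share reads, rose by 5.87 at D28, both against D7. Without D28 replicate 2 the count of mitosis genes lower at D28 than at D7 was again 38, and that at D28 against D10 was 32. The part of these markers' cells in the results was not tested.

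**Figure D3:**
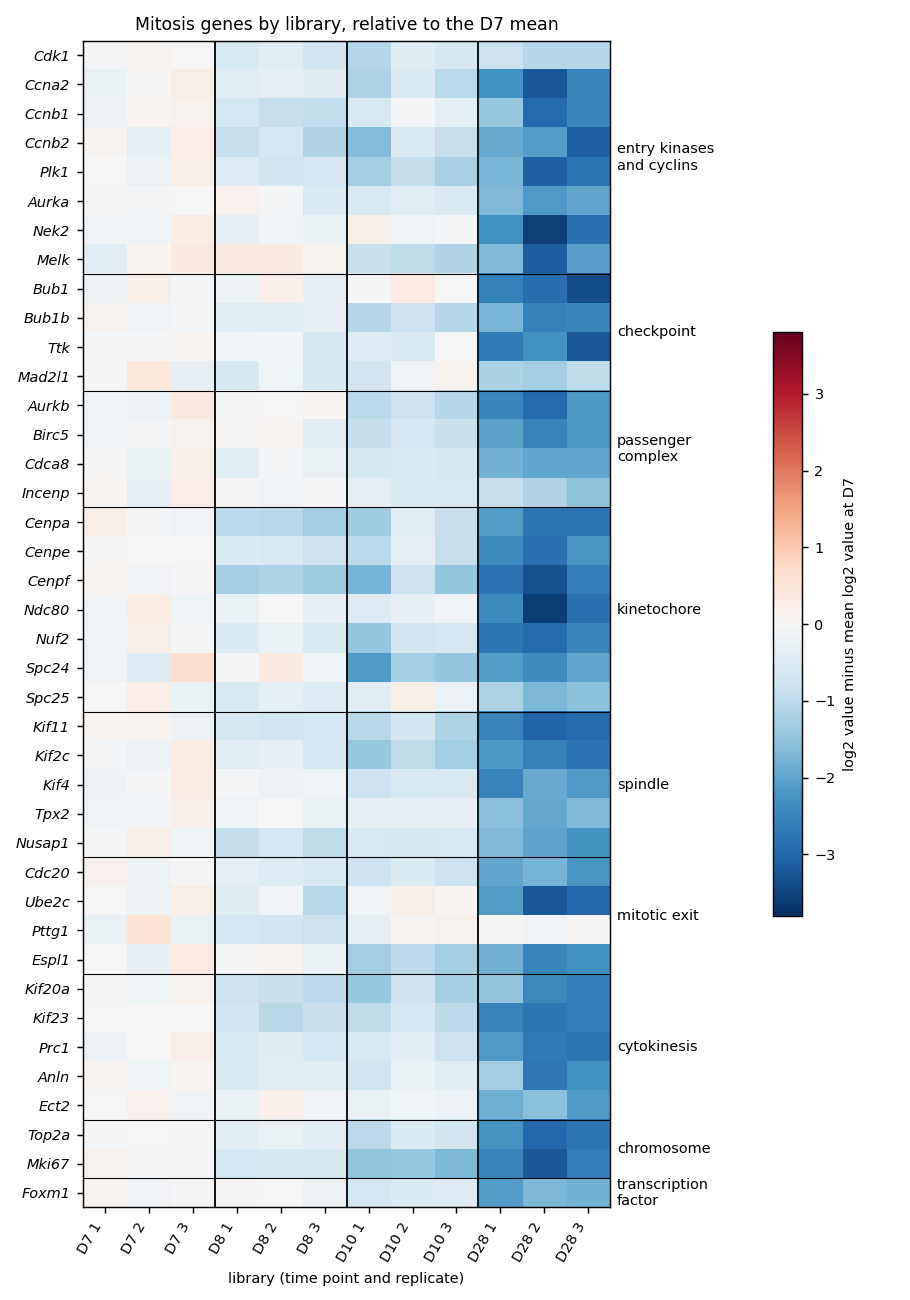
Value of each mitosis gene (rows, grouped by role) in each of the 12 libraries (columns, time point and replicate), as the log2 value minus the mean of the 3 D7 libraries; blue is lower and red is higher. Nearly all rows turn blue at D28, Pttg1 stays pale, and Cenpf, Cenpa, Spc24 and Mki67 are already blue at D8 or D10.

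Mki67 encodes the Ki-67 protein that coats mitotic chromosomes, and Top2a the topoisomerase that untangles sister DNA. Mki67 (GRCm38 chr7:135689784-135716361, minus strand) had 10.64, 10.41 and 10.44 at D7, 9.84, 9.90 and 9.88 at D8, 8.99, 9.06 and 8.78 at D10, and 7.99, 7.30 and 7.87 at D28. It was lower in every library of each later time point, and the groups did not overlap. Mki67 fell by 1.55 at D10 (SE 0.15, adjusted p = 1.3e-06) and by 2.78 at D28 (SE 0.15, adjusted p = 3.5e-09), both against D7. Top2a (GRCm38 chr11:98992943-99024189, minus strand) stood at 10.63, 10.69 and 10.73 at D7, 10.28, 10.41 and 10.28 at D8, 9.68, 10.14 and 9.97 at D10, and 8.43, 7.68 and 7.94 at D28. Here too each group lay below the one before, but the largest difference came after D10. Top2a fell by 1.91 between D10 and D28 (SE 0.16, adjusted p = 1.1e-07), while at D8 and D10 against D7 its log2 fold changes were -0.36 and -0.75. Neither gene rested on fewer than 195 reads in any library.

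Foxm1 encodes the forkhead factor that activates many G2 and M phase genes, and it was the transcription factor of the list. Foxm1 was at 8.11, 7.93 and 8.08 at D7, 8.08, 8.05 and 7.84 at D8, 7.41, 7.52 and 7.55 at D10, and 5.93, 6.34 and 6.24 at D28. D7 and D8 overlapped, D10 lay just below them and D28 far below. Foxm1 fell by 1.87 between D7 and D28 (SE 0.16, adjusted p = 3.8e-07), and its log2 fold change at D10 against D7 was -0.55 (adjusted p = 0.013), short of the fold threshold.

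Of the kinases and cyclins of mitotic entry, 7 of 8 were called lower at D28 than at D7, with a median of -2.34. Cdk1, the catalytic partner of the A and B cyclins, was the one not called. Cdk1 (GRCm38 chr10:69335146-69352938, minus strand) had 9.93, 10.09 and 9.97 at D7, 9.43, 9.60 and 9.31 at D8, 8.90, 9.53 and 9.39 at D10, and 9.18, 8.92 and 8.93 at D28. All D28 libraries were below all D7 libraries, but D28 overlapped D10. Its log2 fold change at D28 against D7 was -0.99 (SE 0.15, adjusted p = 8.7e-05). At D8 against D7 it was -0.55 (adjusted p = 0.016).

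The cyclins of the same kinase changed more. Ccnb1, cyclin B1, was at 8.00, 8.28 and 8.35 at D7, 7.53, 7.35 and 7.29 at D8, 7.65, 8.17 and 7.83 at D10, and 6.78, 5.26 and 5.74 at D28. Its D8 libraries were below both the D7 and the D10 libraries, and D10 overlapped D7. Ccnb1 fell by 1.96 between D10 and D28 (SE 0.29, adjusted p = 3.7e-05), and the difference of D10 from D8, 0.50, did not pass (adjusted p = 0.22). Ccnb2, cyclin B2, was at 8.33, 7.89 and 8.47 at D7, 7.35, 7.60 and 7.09 at D8, 6.58, 7.70 and 7.36 at D10, and 6.33, 6.10 and 5.13 at D28. D10 replicate 1 and D28 replicate 3 were well below the others of their group. Ccnb2 fell by 2.38 at D28 (SE 0.32, adjusted p = 2.6e-05) and by 1.02 at D10 (adjusted p = 0.018), both against D7. The D10 call was lost without D10 replicate 1 (-0.70, adjusted p = 0.096), without D7 replicate 1 (-0.96, adjusted p = 0.059) and without D7 replicate 3 (-0.90, adjusted p = 0.069), and also with a pseudocount of 8 (-0.98), with values under the 3-read level raised to it (adjusted p = 0.059) and by the rule of the study. That rule also ended its call at D28 against D10. Annotated pseudogenes of Ccnb1 and Ccnb2 could share reads with them, so these values are less certain. Ccna2, cyclin A2, fell by 2.69 (adjusted p = 2.9e-07) from 8.65 ± 0.24 (SD, n = 3) at D7, and 12.5% of its exon bases also lie in exons of Exosc9 on the other strand.

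Plk1 encodes polo-like kinase 1, which acts from centrosome maturation to cytokinesis. Plk1 (GRCm38 chr7:122159439-122169873, plus strand) had 8.21, 7.96 and 8.41 at D7, 7.70, 7.51 and 7.56 at D8, 6.91, 7.28 and 6.95 at D10, and 6.44, 5.08 and 5.42 at D28. Each group lay below the one before, with D28 replicate 1 about 1 above its partners. Plk1 fell by 1.15 at D10 (SE 0.28, adjusted p = 0.0035) and 2.55 at D28 (SE 0.28, adjusted p = 3.4e-06) against D7. Aurka, the aurora kinase of the spindle poles, fell by 1.94, and Nek2, which separates centrosomes, fell by 2.90. Nek2 had means of 7.17, 6.94 and 7.16 at D7, D8 and D10 and 4.27 at D28, so that the difference lay wholly after D10. Melk, a kinase found mainly in dividing cells, differed in timing. Its mean went from 7.11 at D8 to 5.86 at D10, a fall of 1.26 (SE 0.33, adjusted p = 0.0098). The later call of Melk at D28 against D10 (-1.31) was lost without D28 replicate 2 (-0.90).

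The 4 checkpoint genes, whose products hold anaphase back until every kinetochore is attached, were all called lower at D28 than at D7, with a median of -2.49, and 0 of 4 were called at D8 or D10 against D7. Bub1, the checkpoint kinase of the kinetochore, had 6.96, 7.37 and 7.11 at D7, 6.96, 7.34 and 6.84 at D8, 7.07, 7.46 and 7.12 at D10, and 4.58, 4.29 and 3.77 at D28. The 9 earlier libraries all lay between 6.84 and 7.46, and the D28 libraries were more than 2 below them. Bub1 fell by 3.00 between D10 and D28 (SE 0.25, adjusted p = 1.1e-07), the largest fall of any member in that comparison. Ttk, the MPS1 kinase that starts the signal, kept to the same course, with means of 6.58, 6.29, 6.23 and 3.85. Bub1b, which encodes BUBR1, decreased earlier as well. Its mean was 8.41 at D7, 7.43 at D10 and 6.15 at D28, and the D10 difference of -0.98 (adjusted p = 0.0012) was just short of the fold threshold.

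Mad2l1, which encodes the MAD2 protein that binds CDC20, changed least of the 4. Mad2l1 was at 8.98, 9.47 and 8.74 at D7, 8.46, 8.92 and 8.47 at D8, 8.38, 8.96 and 9.19 at D10, and 7.87, 7.74 and 8.10 at D28. D7, D8 and D10 overlapped, and all D28 libraries were below them. Mad2l1 fell by 1.16 (SE 0.22, adjusted p = 0.00058), but without D7 replicate 2, the highest library, the value was -0.96 and the call was lost.

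The chromosomal passenger complex, which corrects faulty attachments and later acts at the midzone, had 4 of 4 genes called lower at D28 than at D7, with a median of -2.08. Aurkb, its kinase, had 7.64, 7.50 and 8.08 at D7, 7.68, 7.74 and 7.82 at D8, 6.70, 6.93 and 6.66 at D10, and 5.26, 4.79 and 5.56 at D28. D7 and D8 overlapped and D10 lay below both. Aurkb fell by 2.54 (SE 0.22, adjusted p = 4.1e-07), and its D10 value against D8, -0.98 (adjusted p = 0.0043), was just short of the fold threshold. Birc5, which encodes survivin, was at 7.61, 7.66 and 7.82 at D7, 7.74, 7.77 and 7.29 at D8, 6.79, 7.04 and 6.86 at D10, and 5.66, 5.18 and 5.51 at D28. Its course was like that of Aurkb, with a fall of 2.25 at D28 (SE 0.20, adjusted p = 4.8e-07). Cdca8, borealin, fell by 1.92. Incenp, the scaffold of the complex, fell by only 1.18 (SE 0.18, adjusted p = 7.5e-05), from 8.84 ± 0.28 to 7.65 ± 0.34 (SD, n = 3). All 4 had a log2 fold change between -0.25 and 0.01 at D8 against D7, and 0 were called there.

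The kinetochore genes were called lower at D28 than at D7 in 7 of 7, with a median of -2.57, and they held both genes that were called at D8. Cenpa, the histone H3 variant that marks centromeres, had 8.91, 8.61 and 8.56 at D7, 7.66, 7.65 and 7.38 at D8, 7.34, 8.27 and 7.81 at D10, and 6.56, 5.91 and 5.91 at D28. The D8 libraries were all below D7, while D10 spread over nearly 1 unit and overlapped D8. Cenpa fell by 1.13 at D8 (SE 0.24, adjusted p = 0.003) and by 2.57 at D28 (SE 0.24, adjusted p = 5.7e-07) against D7. Cenpf, a large protein of the outer kinetochore, had 9.03, 8.83 and 9.00 at D7, 7.69, 7.79 and 7.59 at D8, 7.19, 8.13 and 7.49 at D10, and 6.15, 5.66 and 6.36 at D28. It too was lower in all D8 libraries, with D10 overlapping D8. Cenpf fell by 1.26 at D8 (SE 0.23, adjusted p = 0.0011) and 2.90 at D28 (SE 0.23, adjusted p = 1.2e-07). Cenpe, the kinetochore motor that moves chromosomes to the metaphase plate, fell by 2.48 at D28 and had -0.64 at D8 (adjusted p = 0.036).

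Ndc80, Nuf2, Spc24 and Spc25 encode the 4 subunits of the complex that binds microtubules, and their RNAs did not keep one course. Ndc80 (GRCm38 chr17:71496100-71526857, minus strand) was at 6.74, 7.12 and 6.67 at D7, 6.61, 6.82 and 6.53 at D8, 6.36, 6.52 and 6.71 at D10, and 4.43, 3.27 and 4.00 at D28. D7, D8 and D10 overlapped, and all 3 D28 libraries were far lower. Ndc80 fell by 2.94 between D7 and D28 (SE 0.29, adjusted p = 1.2e-06), the largest fall among the 40 genes, and D28 replicate 2 held 13 of its reads. Nuf2 fell by 2.70 and Spc25 by 1.48. Spc24 was at 6.71, 6.34 and 7.45 at D7, 6.80, 7.19 and 6.68 at D8, 4.67, 5.55 and 5.35 at D10, and 4.72, 4.43 and 4.85 at D28. Its D7 and D8 libraries overlapped, its D10 libraries were more than 1 lower than all D8 libraries, and D10 and D28 overlapped. Spc24 fell by 1.70 between D8 and D10 (SE 0.32, adjusted p = 0.0012), the largest step of any member in that comparison, while at D28 against D10 it had -0.52 (adjusted p = 0.19). The D10 libraries of Spc24 held 12, 32 and 29 reads, the thinnest counts among the members at that time.

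The spindle genes were called lower at D28 than at D7 in 5 of 5, with a median of -2.20. Kif11, the motor that pushes the spindle poles apart, had 8.63, 8.64 and 8.29 at D7, 7.92, 7.80 and 7.86 at D8, 7.45, 7.82 and 7.35 at D10, and 5.99, 5.49 and 5.60 at D28. D8 lay below D7, D10 overlapped D8, and D28 lay far below. Kif11 fell by 2.83 (SE 0.19, adjusted p = 2.2e-08), with -0.66 at D8 (adjusted p = 0.021). Kif4, a chromosome motor of the X chromosome (GRCm38 chrX:100625737-100727214, plus strand), was at 7.18, 7.30 and 7.66 at D7, 7.31, 7.19 and 7.21 at D8, 6.58, 6.81 and 6.81 at D10, and 4.86, 5.46 and 5.24 at D28. Its D8 and D7 libraries overlapped. Kif4 fell by 2.20 (SE 0.22, adjusted p = 1.2e-06), and the value is less certain because of an annotated pseudogene and because 15.1% of its exon bases overlap Pdzd11 on the other strand. Kif2c, a microtubule depolymerase, fell already at D10, by 1.25 against D7 (adjusted p = 0.00061), and by 2.52 at D28. Tpx2, the activator of aurora A, fell by 1.74 and had the highest mean of the group at D28, 7.63 ± 0.18 (SD, n = 3). Nusap1, a microtubule bundling protein, fell by 1.99, and at D8 it had -0.84 (adjusted p = 0.0043).

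Mitotic exit held the widest contrast among the members. Cdc20, the activator of the anaphase-promoting complex, had 8.59, 8.23 and 8.50 at D7, 8.09, 7.97 and 7.85 at D8, 7.66, 7.93 and 7.63 at D10, and 6.45, 6.68 and 6.22 at D28. Its group means were lower at every later time. Cdc20 fell by 1.99 (SE 0.17, adjusted p = 2.8e-07). Ube2c, the ubiquitin-conjugating enzyme of the complex, was at 8.65, 8.43 and 8.86 at D7, 8.18, 8.53 and 7.59 at D8, 8.49, 8.88 and 8.71 at D10, and 6.51, 5.43 and 5.65 at D28. The first 3 time points overlapped, with D8 replicate 3 the lowest of them, and the D28 libraries were far below. Ube2c fell by 2.83 between D10 and D28 (SE 0.27, adjusted p = 3.9e-07), and 22.8% of its exon bases overlap Tnnc2 on the other strand. Espl1, separase, which cuts cohesin, fell by 1.13 between D8 and D10 (SE 0.24, adjusted p = 0.0027) and by 2.21 in all. Its call at D28 against D10 (-1.02) was lost without D10 replicate 2 (-0.92), without D28 replicate 2 (-0.87) and without D28 replicate 3 (-0.97), and also with median-of-ratios scaling or a pseudocount of 8 (both -0.89).

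Pttg1, securin, the inhibitor of separase, was the exception of the list. Pttg1 (GRCm38 chr11:43420250-43426251, minus strand) was at 9.24, 10.00 and 9.21 at D7, 8.85, 8.78 and 8.67 at D8, 9.11, 9.55 and 9.61 at D10, and 9.53, 9.39 and 9.52 at D28. D28 lay within the range of D7, and D8 lay below both D7 and D10 in all libraries. The log2 fold change at D28 against D7 was -0.003 (SE 0.18, 95% interval -0.40 to 0.39), with an adjusted p that rounded to 1. At D10 against D8 it was 0.65 (SE 0.18, adjusted p = 0.015), and at D8 against D7 -0.72 (adjusted p = 0.012), both short of the fold threshold. By rank, which can understate high read numbers, Pttg1 held 756 to 907 reads in the D28 libraries, and Espl1 held 41 to 73. In the annotation the bases upstream of its RefSeq start lie within a longer transcript, so its promoter is not shown.

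The cytokinesis genes were called lower at D28 than at D7 in 5 of 5, with a median of -2.20. Prc1, which bundles the microtubules of the midzone, had 8.60, 8.84 and 9.01 at D7, 8.25, 8.36 and 8.19 at D8, 8.23, 8.39 and 8.04 at D10, and 6.66, 6.12 and 6.06 at D28. D8 and D10 overlapped below D7, and D28 was lower again. Prc1 fell by 2.54 (SE 0.18, adjusted p = 3.9e-08), and 11.1% of its exon bases overlap Rccd1 on the other strand. Anln, anillin of the cleavage furrow, was at 9.54, 9.31 and 9.54 at D7, 8.93, 9.02 and 9.03 at D8, 8.70, 9.21 and 9.07 at D10, and 8.14, 6.75 and 7.15 at D28. At D28 replicate 1 lay more than 1 above replicate 2, and all were below D10. Anln fell by 2.11 (SE 0.25, adjusted p = 8.4e-06). Kif23 and Ect2, which place and activate the furrow, fell by 2.64 and 1.87. Kif23 had -0.87 at D8 (adjusted p = 0.0049), while Ect2 had -0.07, with overlapping libraries. Kif20a, a midzone motor, fell by 1.16 at D10 (adjusted p = 0.0019) and 2.20 at D28 against D7. Its call at D28 against D10 (-1.04) was lost without D10 replicate 2 (-0.85), D28 replicate 2 (-0.92) or D28 replicate 3 (-0.82), with median-of-ratios scaling (-0.91) or a pseudocount of 8 (-0.97), and by the rule of the study. In Kif20a 29.3% of its exon bases overlap Cdc23 on the other strand.

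**Figure D4:**
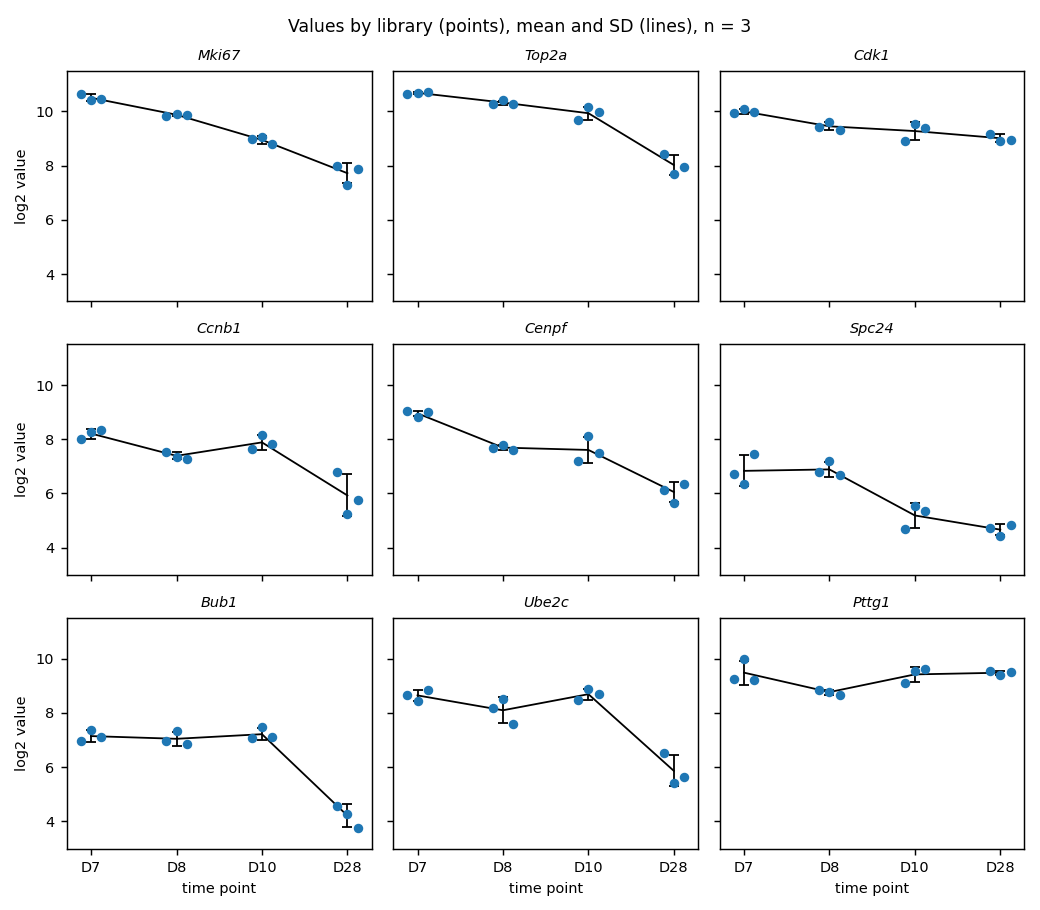
Log2 values of 9 mitosis genes in each library (points) over the 4 time points (x axis), with the line through the group means and bars of 1 SD (n = 3); the y axis starts at 3. Bub1 stays level to D10 and drops at D28, Ube2c dips at D8 and is lowest at D28, Spc24 drops between D8 and D10, Cenpf drops by D8, and Pttg1 ends where it began.

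The timing of the decrease differed between members. Among the 39 genes other than Pttg1 the D28 decrease ranged from 0.99 to 2.94 on the log2 scale. By D8 a median of 16.9% of that decrease was reached and by D10 a median of 33.0%, with a range at D10 from -2.40% to 75.9%. In 36 of the 40 the step from D10 to D28 was the largest fall of the 3, and in 27 the mean decreased at every step. These counts were not made over all genes, of which 3.81%, 5.58% and 13.7% were called lower in the 3 steps in order. The steps are unequal in length, so they are not rates. Bub1 was at the low end of this range. Spc24, with 75.9%, and Cdk1, with 73.3%, were at the high end, and Mki67 had reached 55.9%.

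The genes with a promoter were also described by their motifs. The 20 with both had a median log2 fold change at D28 against D7 of -2.46 and a range from -2.90 to -0.99, and the 13 without both had -2.30 and a range from -2.94 to 0. At D10 against D7 the medians were -0.74 and -0.47, and that of the 6 genes with neither motif was -0.70. The 6 with neither motif held 5 genes called lower at D28 and Pttg1, and the 20 with both held 19 and Cdk1. Of the 20 with both, 2 were first called below D7 at D8 and 4 at D10, compared with 0 and 1 of the 13 without both. No test was made of these differences, and first calls were not tallied over all genes.

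Levels can be set side by side between genes only per length, here as the log2 value per kilobase of annotated exons. On that scale Pttg1 was the highest at D7, at 8.48 ± 0.45 (SD, n = 3), ahead of Cdk1 (7.69 ± 0.08), Ccnb2 (7.61 ± 0.31), Cdc20 (7.54 ± 0.19) and Top2a (7.51 ± 0.05). Each of these 4 was within 1 SD of its neighbour in that order, and Pttg1 stood above them. At the low end were Ndc80 (4.13 ± 0.24), Ttk (4.26 ± 0.09) and Espl1 (4.27 ± 0.32), again within their spread. At D28 Pttg1 was at 8.48 ± 0.08, Cdk1 at 6.70 ± 0.15, Top2a at 4.84 ± 0.38 and Ndc80 at 1.10 ± 0.63, so that the 2 genes that did not pass the call stood at the top. Exon bases of all transcripts were used, and a gene whose main transcript is short is placed too low.

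Other genes of the machinery were counted by the same call at D28 against D7, by which 8.66% of all genes were lower and 8.63% higher. Of 24 further spindle and cytokinesis genes, 22 were called lower at D28 than at D7 and 0 higher, with a median of -2.40. The largest falls among them were those of Cit, citron kinase of the furrow (-3.63), and Troap, a spindle-associated protein (-3.58). Further kinetochore and centromere genes were lower in 17 of 33 (median -1.06), led by Kntc1 (-3.22) and Ska1 (-2.91), and higher in 0. At D10 against D8 this list had 1 gene called higher, Zwint (1.08), and 1 lower, Cenpm (-1.28), beside 4.08% and 5.58% of all genes. Other regulators of mitotic entry were lower in 9 of 14 (median -1.28), led by the phosphatase gene Cdc25c (-2.09). Condensin and cohesin genes, which shape chromosomes and hold sisters together, were lower in 7 of 17 (median -0.24), led by the condensin subunit Ncapg (-2.53).

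The list of the anaphase-promoting complex, whose subunits are not confined to dividing cells, also held partners of the complex. In this list 1 of 16 was lower and 1 higher, with a median of -0.22, beside 8.66% and 8.63% of all genes. These were Ube2s (-1.01), a conjugating enzyme that works with the complex and is not a subunit, and the subunit Anapc13 (1.05). Among the DREAM and MYB regulators and their partners, 3 of 21 were lower (median -0.39), beside 8.66% of all genes, led by the atypical repressor E2f7 (-3.26) and Mybl2 (-2.34), which encodes B-MYB. Both motifs stood in the promoters of 13 of 23 further spindle genes, 9 of 29 further kinetochore genes, 3 of 28 DNA replication genes and 0 of 15 genes of the anaphase-promoting complex.

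DNA replication genes, which act in S phase before mitosis, are given for comparison. At D8 against D7, 4 of 36 were called higher (3.23% of all genes) and 0 lower, with a median of 0.50, where the mitosis genes had -0.45 and 2 of 40 lower. Orc1, of the origin recognition complex, rose by 1.69 and Cdc6, which loads the helicase, by 1.38. At D10 against D8, 7 of 36 were lower (5.58% of all genes) and 1 higher, with a median of -0.68. By D28, 14 of 36 were lower than at D7 (8.66% of all genes) and 0 higher, with a median of -0.61 beside -2.29 in the mitosis genes, and the thymidine kinase gene Tk1 (-2.29) and Cdc6 (-2.16) fell furthest. The difference between the lists was not tested. Of 13 D-type cyclin, partner kinase and CDK inhibitor genes, 0 were lower and 2 higher at D28 than at D7 (8.63% of all genes). These 2 are inhibitors of the INK4 family, Cdkn2a (4.84) and Cdkn2b (2.15). At D10 against D7 4 of the 13 were lower, led by Cdkn1c, the inhibitor p57 (-2.25), and Ccnd3, cyclin D3 (-2.01), and 1 was higher, beside 10.4% and 8.5% of all genes.

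**Figure D5:**
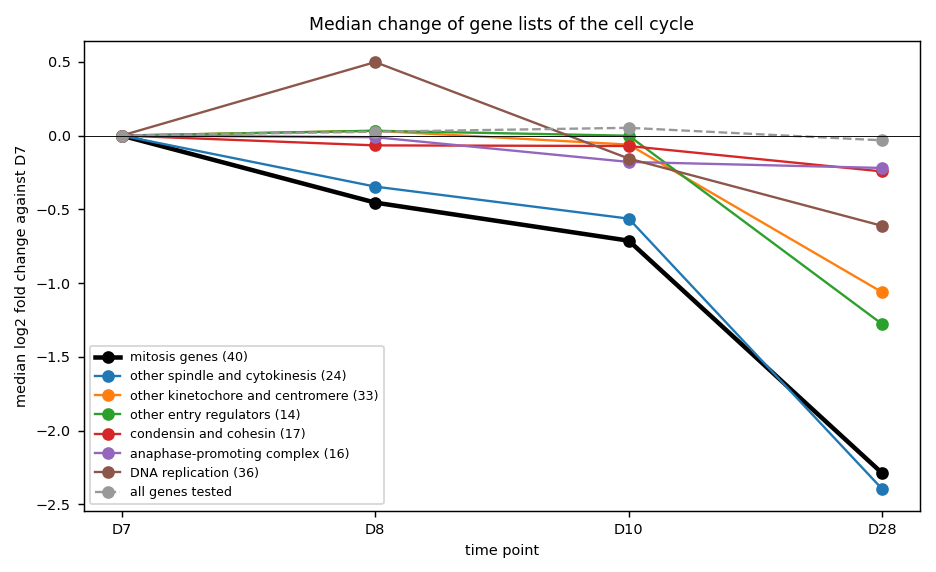
Median log2 fold change against D7 (y axis) at D8, D10 and D28 (x axis, not to scale in days) for the mitosis genes, 6 other lists of cell cycle genes with the number of genes in brackets, and all genes tested. The mitosis genes and the further spindle genes end at -2.29 and -2.40, the anaphase-promoting complex stays near all genes tested, and the median of the DNA replication genes is 0.50 at D8 and below 0 later.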

How the data were processed

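RNA from cell pellets was sequenced in 12 libraries, 3 at every time point. According to the submitters' processing notes and the study's methods, reads were trimmed with Trimmomatic 0.36, aligned with HISAT2, annotated with Cufflinks and counted per gene with HTSeq, and the merged counts were equalized between libraries. The deposited values are on a log2 scale, taken after 1 was added to each equalized count, and replicates were not pooled. Sorted values are nearly the same in every library, so a change of total RNA cannot appear. The notes name the build GRCm38, the methods name hg38, and the symbols are those of mouse. The strand setting of the counting is not given in the sources used here, so reads of genes that overlap on opposite strands may not be told apart.

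Groups were taken from the sample titles. The tests covered the 17674 of 28244 genes that reached a log2 value of 1 in 3 or more libraries. Means of the 4 time points were fitted over all 12 libraries with limma 3.58.1 in R 4.3.3, with a variance trend (residual degrees of freedom 8, prior 7.23). P-values are two-sided and, where adjusted, follow Benjamini and Hochberg across the 17674 genes, and fold changes are on the log2(value + 1) scale. Errors are SD (n = 3) or the limma SE, and the interval given is a 95% one. Reads behind a value were taken from its place in the ordered distinct values of a library, which can understate the reads of high values. Relative depth came from 562 genes at 5 to 60 reads. A level of 3 reads was at most 2.87. Both cover counting error alone, as reads lacked molecular identifiers and may repeat a molecule. Summed marker levels are the log2 of summed unlogged values. Positions, exon lengths and overlaps came from the GENCODE M21 annotation by symbol, and promoters from RefSeq (GRCm38.p6). Tables used pandas 2.3.3 and numpy 2.4.6 in Python 3.11.15, figures used matplotlib 3.10.9, and the fit was tested on simulated data.

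The mitosis genes, the other lists and the tests were chosen with earlier results of these data known, and no test was made over a list. All 40 members may be named. Values in each library are given for 20 members picked for their role and for the 3 with the largest and the 3 with the smallest change at D28 against D7, and at most 4 genes are named from another list, the largest rises and falls among those called. Myod1, Myh3, the globin genes and Col2a1 fall outside this rule and were named, after their values were seen, as defining markers. Spc24 is also outside it, and its values in each library were given after its fall between D8 and D10 was seen. Alternatives were other filters, scaling, pseudocounts, thresholds, the rule of the study, a replicate block and leaving out each library.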

Additional observations from a re-analysis of the deposited data

How the results depend on the processing

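No called difference of a mitosis gene changed direction under any alternative, and of 86 calls over the 5 comparisons all 86 held with a mean log2 value of at least 3, with no filter on low values and with a pseudocount of 0.1. With a pseudocount of 8 and by the rule of the study 83 held, with median-of-ratios scaling 84, and with values under the 3-read level raised to it 85. The first 3 of these gave 33 lower members at D28 against D10 in place of 35, and the calls lost were Ccnb2 at D10 against D7, and Ccnb2, Espl1 and Kif20a at D28 against D10. With a fold threshold of 2 on the log2 scale the counts of lower members were 0 at D8 against D7, 0 at D10 against D8, 0 at D10 against D7, 5 at D28 against D10 and 28 at D28 against D7, by construction of the stricter threshold. With no fold threshold they were 11, 9, 27, 37 and 39, and 1 member, Pttg1, was higher at D10 than at D8. Scaling by median of ratios gave 13 lower members at D10 against D7, and the cause was not tested. This scaling moved the median of all genes at D28 against D10 from -0.10 to 0.01 and that of the mitosis genes from -1.43 to -1.30. Leaving out each library in turn gave 2 lower members at D8 against D7, 3 to 4 at D10 against D8, 8 to 14 at D10 against D7, 32 to 36 at D28 against D10 and 37 to 39 at D28 against D7, and 0 higher members throughout. The highest D10 count, 14, came without D10 replicate 2. The calls lost by leaving out a library were Ccnb2 at D10 against D7, Melk, Espl1 and Kif20a at D28 against D10, and Mad2l1 at D28 against D7. Depth limits Spc24 at D10 and Ndc80 at D28 most, with 12 and 13 reads in their lowest libraries.

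Replicate numbers are shared between time points, but libraries with the same number did not deviate together (correlations from -0.06 to 0.07), so the numbers were not taken as pairs. With the number as a replicate block, 2, 3, 8, 35 and 38 members were lower in the 5 comparisons, and all 86 calls held.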
